A study of Homo sapiens with 8 samples.

Results

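The insulin-like growth factor (IGF) receptors, their docking protein and their binding proteins were examined in HGC27 cells that overexpressed GFP or a mutant p53. The members are 10 genes taken by name from a table of 25435: the receptors IGF1R, INSR and IGF2R, the docking protein IRS1, and the binding proteins IGFBP2, IGFBP3, IGFBP4, IGFBP5, IGFBP6 and IGFBP7. All 10 were present in the table, and all 10 passed the filter on low counts that left 13213 genes for testing. HGC27 cells are a long-used human line from a gastric carcinoma, described in the labels of all 8 libraries as lacking p53. The 4 groups overexpressed GFP, as the control, or p53 with the substitution R175H, R248Q or R273H, with 2 libraries each, and all cells were grown in alpha-MEM. In R175H the fold of the DNA-binding domain is disturbed, and in R248Q and R273H an arginine that touches DNA is lost. The labels give no vector, promoter, clone or harvest time, and do not say whether the 2 libraries of a group came from separate cultures. P-values therefore measure only the spread between these libraries, which may be technical. The title of the series speaks of knockout and knockdown, but each sample label names overexpression.

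IGF1 and IGF2 are secreted growth factors that activate the tyrosine kinase receptor IGF1R, and insulin acts through the closely related INSR. Both kinases phosphorylate IRS1, which recruits PI3K and so activates AKT and mTOR. IGF2R has no kinase: it takes up IGF2 for degradation and carries enzymes tagged with mannose 6-phosphate to lysosomes. The binding proteins are secreted and hold the ligands away from the receptors or deliver them to cells, and IGFBP7 binds IGFs only weakly. Wild-type p53 is known to repress the IGF1R promoter and to induce IGFBP3, which makes both genes common readouts of p53 function.

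Total counts ranged from 6800463 to 11788035 per library. The cells had the mesenchymal marker VIM at 4608 to 5728 CPM (TMM-normalised read counts relative to the library total), while the epithelial markers KRT8, KRT18, EPCAM and CDH1 had no more than 39 counts in any library, and KRT18 and CDH1 no more than 2. Whether the near absence of KRT18 reads comes from the cells or from the counting step was not tested. The fibroblast markers DCN and LUM were high in all libraries, and DCN, PDGFRA and LUM together made 446 to 544 CPM, lowest in both R248Q libraries. Endothelial CDH5 and the T cell marker CD3E were at 0 in all 8 libraries. The part of these markers in the results below was not tested. The 2 GFP libraries stood farther apart than the pair of any mutant (chi-square per degree of freedom 5.72, against 1.21 to 1.6). GFP replicate 1 was low in long transcripts: in 893 well-counted genes of at least 8000 nt its median deviation from the gene mean was -0.28 on the log2 scale, against -0.03 in GFP replicate 2, and R248Q deviated by 0.14 and 0.13. This bears on the receptors and IRS1, with transcripts of 8954 to 14044 nt, more than on the binding proteins, with 1177 to 6215 nt, so values without GFP replicate 1 or with the length trend removed stand beside the results on the members.

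Per kilobase of transcript, every binding protein was above every receptor, by far for IGFBP2, IGFBP7 and IGFBP4. The mean over all 8 libraries was 163 CPM per kb for IGFBP2, 140.3 for IGFBP7 and 117 for IGFBP4. The next level was 26.1 CPM per kb for IGFBP5, followed by 15.7 for IGFBP6 and 13.8 for IGFBP3. IGF2R had 7.81, IGF1R 3.5, INSR 2.22 and IRS1 1.51 CPM per kb. The libraries' ranges overlapped for IGFBP2 and IGFBP7 (138 to 184 and 129 to 157), for IGFBP6 and IGFBP3 (14.0 to 20.2 and 11.2 to 19.1) and for IGF1R and INSR (2.26 to 4.23 and 1.77 to 2.78), although IGF1R was above INSR in each of the 8 libraries. All other neighbours in this order were separate in every library.

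**Figure D1:**
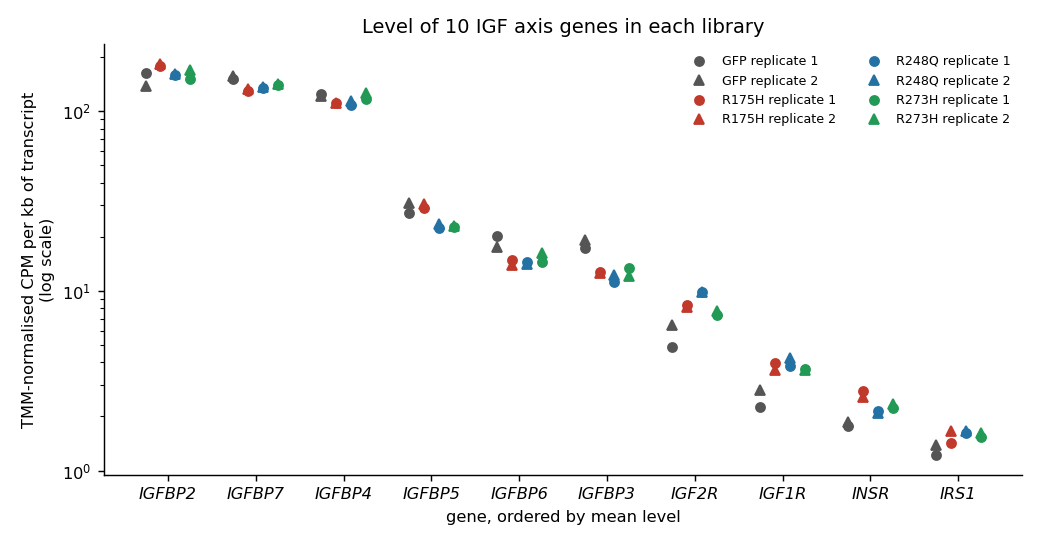
Level of each gene in each of the 8 libraries, as TMM-normalised CPM per kilobase of transcript on a log axis, with genes ordered by their mean. The 6 binding proteins lie above IGF2R, IGF1R, INSR and IRS1 in every library, and IGFBP2, IGFBP7 and IGFBP4 lie above 100 in all of them.

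The ligands were scarce in the same libraries. IGF1 had 2 to 4 counts per library, IGF2 had 10 to 35 (1.34 to 2.98 CPM), and the insulin gene INS had 0 in all 8. IGF2 passed in no comparison with GFP, with log2 fold changes of -0.64 ± 0.43 for R175H, -0.0050 ± 0.35 for R248Q and -0.29 ± 0.37 for R273H (SE, n = 2 per group). A difference of that size was not detectable at this depth. IGFBP1 had 0 counts in all 8 libraries, which allows up to 3 counts, or 0.442 CPM in the shallowest library (R175H replicate 1). IRS2, named after its values were seen, was likewise at 0 in all libraries. Whether such a 0 comes from the cells or from how reads were counted was not tested.

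Against GFP, a larger share of the 10 genes than of all genes tested was called. The members were chosen with earlier results of these data known, so this larger share is a description and no test of them. A gene was called where edgeR gave an adjusted p below 0.05 (quasi-likelihood fit, Benjamini-Hochberg over all 13213 genes). In R175H 7 of 10 were called, 4 higher and 3 lower, where 11.0% of all genes were called (6.39% higher, 4.59% lower). R248Q had 6 of 10, 2 higher and 4 lower, where 6.32% were called (4.88% higher, 1.44% lower). R273H had 4 of 10, 2 higher and 2 lower, where 1.01% were called (0.757% higher, 0.250% lower). The receptors and IRS1 are longer than 8000 nt. Of the 1066 tested genes of at least that length 188 were called higher in R175H, 369 in R248Q and 64 in R273H. The median log2 fold change of the receptors and IRS1 was 0.54, 0.50 and 0.37 in R175H, R248Q and R273H, and that of the 6 binding proteins -0.19, -0.26 and -0.21. Over all genes tested the medians lay between -0.0080 and 0.0099. The 3 comparisons share the same GFP libraries, so they are not independent of each other. Without GFP replicate 1 the counts were 6, 6 and 4, where 11.8%, 4.27% and 1.53% of all genes were called, and without GFP replicate 2 they were 8, 8 and 5, where 25.1%, 25.5% and 16.7% were. In fits to the 4 libraries of the groups compared alone they were 4, 4 and 0, where 4.19%, 2.999% and 0.0463% of all genes were called. Each count was lowest without a library of its own mutant: 3 and 4 without R175H replicate 1 and 2, 3 and 3 without R248Q replicate 1 and 2, and 0 and 0 without R273H replicate 1 and 2. The share over all genes fell there too, to 3.42% and 3.87%, 1.70% and 1.69%, and 0.0598% and 0.172%. Without any 1 library of another mutant 2 were called in R273H, where 0.472% to 0.486% of all genes were.

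**Figure D2:**
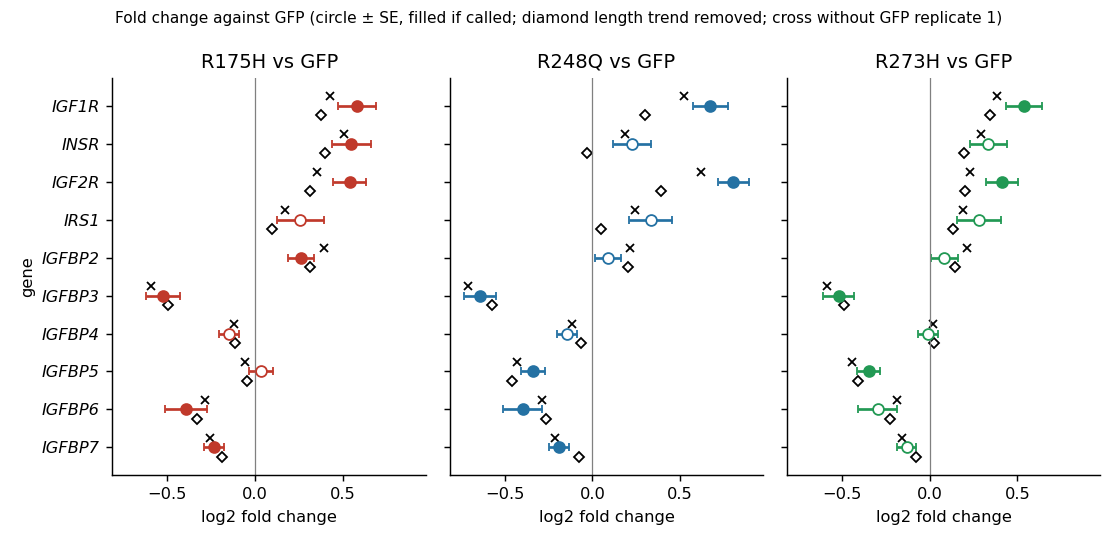
Log2 fold change of each gene against GFP, 1 panel per mutant, as circles with the SE of the fit (filled where called). Diamonds give the value with the length trend removed and crosses the value without GFP replicate 1. Receptors lie to the right and IGFBP3 to the left of 0 in all 3 panels, and the receptors' diamonds lie nearer 0 than their circles.

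IGF1R, the kinase receptor for IGF1 and IGF2, rose in all 3 mutants. GFP had 27.6 and 34.2 CPM, R175H 48.5 and 44.2, R248Q 46.5 and 51.8, and R273H 45.1 and 44.4. Each of the 6 mutant libraries was above both GFP libraries, and the mutants overlapped each other except that R273H lay below R248Q. The log2 fold changes were 0.58 ± 0.11 in R175H (edgeR adjusted p = 0.0023), 0.67 ± 0.10 in R248Q (adjusted p = 6.8e-04) and 0.54 ± 0.10 in R273H (adjusted p = 0.016, SE, n = 2 per group), a rise of 49.6%, 59.2% and 45.0%. Without GFP replicate 1 they were 0.43, 0.52 and 0.39, and with the length trend removed 0.37, 0.30 and 0.34, all called (largest adjusted p = 0.030). With both changes they were 0.35, 0.28 and 0.32, called in R175H alone (adjusted p = 0.011, 0.10 and 0.065). Without R273H replicate 1 or 2 the R273H value was 0.52 or 0.55, not called.

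IGF2R, the receptor that clears IGF2, also rose in all 3 mutants, most in R248Q. GFP had 68.8 and 90.2 CPM, R175H 116 and 114, R248Q 138 and 139, and R273H 103 and 108. No mutant library overlapped GFP, no group overlapped another, and the GFP libraries were the farthest apart. The log2 fold changes were 0.54 ± 0.09 in R175H (edgeR adjusted p = 0.0015), 0.80 ± 0.09 in R248Q (adjusted p = 4.0e-05) and 0.41 ± 0.09 in R273H (adjusted p = 0.036, SE, n = 2 per group). Without GFP replicate 1 they were 0.35, 0.62 and 0.23, and without GFP replicate 2 0.74, 1.01 and 0.62. With the length trend removed they were 0.31, 0.39 and 0.20. The calls in R175H and R248Q held in all 19 alternatives. That in R273H held in 6 and was lost without GFP replicate 1 (adjusted p = 0.064), with the length trend removed (0.089) and without any 1 mutant library (0.38 to 0.45 on the log2 scale).

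The sequences before the start sites of these receptors are shown because they are the members that rose in every mutant. They are the 250 bases upstream of the RefSeq start in GRCh38.p14, which is not the hg19 build to which the authors aligned, at chr15:98648289-98648538 for IGF1R and chr6:159968832-159969081 for IGF2R, both on the plus strand. Capitals mark the GC box GGGCGG in IGF1R and the E-box CACGTG in IGF2R.
IGF1R: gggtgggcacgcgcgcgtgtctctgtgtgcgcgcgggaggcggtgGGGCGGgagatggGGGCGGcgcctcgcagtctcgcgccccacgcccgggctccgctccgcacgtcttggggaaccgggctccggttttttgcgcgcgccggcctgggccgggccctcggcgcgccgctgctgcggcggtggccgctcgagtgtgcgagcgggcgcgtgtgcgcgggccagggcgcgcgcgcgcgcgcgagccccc
IGF2R: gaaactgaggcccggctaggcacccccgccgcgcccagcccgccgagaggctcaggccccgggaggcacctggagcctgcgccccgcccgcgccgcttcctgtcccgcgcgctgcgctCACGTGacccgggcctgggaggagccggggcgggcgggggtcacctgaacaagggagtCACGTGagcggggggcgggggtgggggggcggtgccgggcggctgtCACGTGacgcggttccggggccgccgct

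The IGF2R window holds CACGTG 3 times, at 132 to 127, 74 to 69 and 28 to 23 bases before the start, letters that 6.34% of all 35116 RefSeq windows hold on either strand. Each contains the hypoxia core ACGTG on both strands. IGF2R also holds the GC box at 6 places and IGF1R at 2, counted over both strands, where 42.6% of windows hold it. Neither window holds TATAAA (10.7% of windows) or CCAAT (32% of windows), and 81.2% of the IGF1R and 79.2% of the IGF2R bases are G or C. IGF1R holds the hypoxia core GCGTG at 4 places and ACGTG at 1, present in 32.2% and 18.5% of windows. The 10-base p53 half-site, searched by its consensus on both strands (5.57% of windows), is in neither. A full p53 response element was not searched for.

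INSR, the insulin receptor, rose in R175H. GFP had 15.8 and 16.7 CPM, R175H 24.9 and 22.9, R248Q 19.2 and 18.7, and R273H 20.1 and 20.9. All mutant libraries were above GFP, and those of R175H were above all others. The log2 fold change was 0.55 ± 0.11 in R175H (edgeR adjusted p = 0.0046), against 0.22 ± 0.11 in R248Q (adjusted p = 0.23) and 0.33 ± 0.11 in R273H (adjusted p = 0.19, SE, n = 2 per group). The R175H call was kept in 18 of 19 alternatives and lost without R175H replicate 1 (0.49, adjusted p = 0.064). The 3 values with the length trend removed were 0.40, -0.03 and 0.20. IRS1, the docking protein of both kinases, passed in no mutant in the fit to all 8 libraries: its CPM was 11.8 and 13.4 in GFP and 13.9 to 16.0 in the mutants, with log2 fold changes of 0.26 ± 0.13, 0.33 ± 0.12 and 0.28 ± 0.13 (SE). Without GFP replicate 2 they were 0.35, 0.42 and 0.37, called in R248Q (adjusted p = 0.039). Removing the length trend gave 0.09, 0.05 and 0.13. IGF1R and INSR together made 43.4 and 51.0 CPM in GFP and 65.2 to 73.4 in the mutants. IGF1R had 1.75 and 2.05 times the CPM of INSR in GFP against 1.93 to 2.76 times in the mutants. These ratios are not corrected for transcript length (12235 nt for IGF1R, 8954 nt for INSR) or for the length trend.

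**Figure D3:**
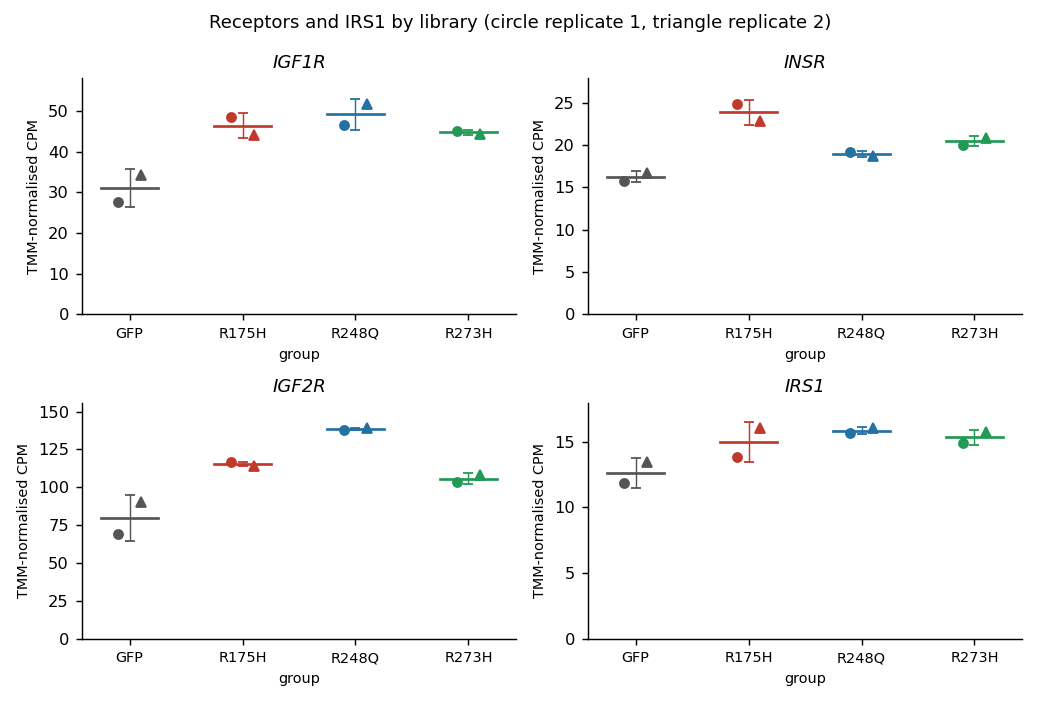
TMM-normalised CPM of IGF1R, INSR, IGF2R and IRS1 in each library by group, with lines at the group mean and bars of 1 SD (n = 2). All 6 mutant libraries are above both GFP libraries in each panel, INSR is highest in R175H and IGF2R in R248Q.

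IGFBP3, the main carrier of IGFs in blood, fell in all 3 mutants. GFP had 42.0 and 46.1 CPM, R175H 30.7 and 30.5, R248Q 26.9 and 29.5, and R273H 32.3 and 29.1. All 6 mutant libraries were below both GFP libraries, and GFP replicate 1 was nearer to them than GFP replicate 2. IGFBP3 fell by 0.53 ± 0.10 in R175H (edgeR adjusted p = 0.0023), by 0.64 ± 0.09 in R248Q (adjusted p = 4.5e-04) and by 0.52 ± 0.09 in R273H (log2, adjusted p = 0.010, SE, n = 2 per group), a percent change of -30.5%, -35.9% and -30.2%. The R175H and R248Q calls held in all 19 alternatives, with values of -0.60 to -0.46 and -0.71 to -0.57. The R273H call held in 16 and was lost without R273H replicate 1 (-0.60) or 2 (-0.44) and in the fit to the groups compared alone. Removing the length trend gave -0.50, -0.57 and -0.49.

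IGFBP5, a binding protein that is held in the matrix, fell in R248Q and R273H. GFP had 168 and 192 CPM, R175H 180.5 and 188, R248Q 139 and 146, and R273H 141 and 143. R175H lay within the range of GFP, whereas the 4 libraries of the DNA-contact mutants were below all 4 others. IGFBP5 fell by 0.34 ± 0.07 in R248Q (edgeR adjusted p = 0.0054) and by 0.35 ± 0.07 in R273H (log2, adjusted p = 0.017), and its log2 fold change in R175H was 0.03 ± 0.07 (adjusted p = 0.80, 95% interval -0.11 to 0.17, SE, n = 2 per group). The R248Q value was -0.43 without GFP replicate 1 and -0.24 without GFP replicate 2, both called, and -0.30 and -0.37 without R248Q replicate 1 and 2, neither called. The R273H call was lost without any 1 mutant library (-0.36 to -0.34, adjusted p from 0.051 to 0.30). Its value was -0.44 without GFP replicate 1, -0.25 without GFP replicate 2 and -0.41 with the length trend removed, all called.

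The sequences before the starts of IGFBP3 and IGFBP5 are shown because these are the binding proteins called lower in both R248Q and R273H. They lie on the minus strand of GRCh38.p14, at chr7:45921273-45921522 and chr2:216695550-216695799. Capitals mark the hypoxia core GCGTG, on either strand, in IGFBP3.
IGFBP3: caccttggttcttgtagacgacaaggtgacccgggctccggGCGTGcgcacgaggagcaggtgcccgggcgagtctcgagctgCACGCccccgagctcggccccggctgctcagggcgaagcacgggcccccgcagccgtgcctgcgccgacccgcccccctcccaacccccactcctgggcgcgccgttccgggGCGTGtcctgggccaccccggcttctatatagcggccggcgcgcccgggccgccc
IGFBP5: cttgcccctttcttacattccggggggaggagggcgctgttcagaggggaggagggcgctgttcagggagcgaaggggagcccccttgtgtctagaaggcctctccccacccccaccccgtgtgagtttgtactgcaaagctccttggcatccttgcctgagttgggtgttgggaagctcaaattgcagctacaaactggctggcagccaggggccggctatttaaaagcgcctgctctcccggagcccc

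IGFBP3 holds GCGTG at 3 places and the GC box at 2. The IGFBP5 window holds none of the 8 motifs searched, which besides those named above included the FOXO site TGTTTAC (2.98% of windows), and 61.2% of its bases are G or C, against 76% in IGFBP3. RefSeq windows were found for 9 of the 10 members. Among the others, IGFBP4 holds TATAAA 29 to 24 bases before its start, IGFBP6 holds the FOXO site, and 1 of 3 windows of IGFBP2 holds the p53 half-site.

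IGFBP2, which had the highest mean per kilobase over the 8 libraries although IGFBP7 was above it in GFP replicate 2, rose in R175H from 236 and 199 CPM in GFP to 256 and 265. R248Q had 229.7 and 232 CPM and R273H 217 and 243, between or close to the GFP libraries. The log2 fold changes were 0.26 ± 0.08 in R175H (edgeR adjusted p = 0.036), 0.09 ± 0.07 in R248Q and 0.08 ± 0.07 in R273H (SE, n = 2 per group). GFP replicate 1 was the higher of its group here: without it the values were 0.39, 0.22 and 0.21, all called, and without GFP replicate 2 they were 0.14, -0.03 and -0.03, with R175H alone called. With the length trend removed they were 0.31, 0.21 and 0.14, called in R175H and R248Q. The R175H call was lost without any 1 mutant library (0.23 to 0.29, adjusted p from 0.051 to 0.21) and with DESeq2. IGFBP2 and IGFBP5 are neighbouring genes transcribed towards each other, and the called changes were in different mutants and opposite in sign.

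IGFBP7, a matrix protein with weak IGF binding, fell in R175H and R248Q. GFP had 216 and 224 CPM, R175H 184 and 189.6, R248Q 192 and 194, and R273H 199 and 203, so that all mutant libraries were below GFP. It fell by 0.24 ± 0.06 in R175H (edgeR adjusted p = 0.013) and by 0.19 ± 0.05 in R248Q (log2, adjusted p = 0.048), and had -0.13 ± 0.05 in R273H (adjusted p = 0.32, SE, n = 2 per group). The R175H call was lost without R175H replicate 1 (-0.22) or 2 (-0.26). The R248Q call was lost without any 1 mutant library (-0.19 to -0.18), with the length trend removed (-0.08) and with DESeq2. In RefSeq the span of IGFBP7 overlaps those of POLR2B (1412 to 2681 counts) and the antisense gene IGFBP7-AS1 (198 to 429 counts), which are counted separately. Overlap of exons was not examined and the strand setting is unknown, so whether any of their reads were counted for IGFBP7 was not tested.

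IGFBP6, which prefers IGF2, fell by 0.39 ± 0.12 in R175H (edgeR adjusted p = 0.046) and by 0.40 ± 0.11 in R248Q (log2, adjusted p = 0.046), and had -0.30 ± 0.11 in R273H (adjusted p = 0.27, SE, n = 2 per group). It was at 23.7 and 20.6 CPM in GFP and 16.5 to 19.2 in the mutants. Both calls were lost without any 1 library other than GFP replicate 2. Without GFP replicate 1 the values were -0.29 and -0.29, without GFP replicate 2 -0.49 and -0.49 (and -0.39 in R273H, then called, adjusted p = 0.026), and without 1 mutant library -0.43 to -0.35 in R175H and -0.41 to -0.38 in R248Q. They were also lost with the length trend removed (-0.33 and -0.26) and with DESeq2. IGFBP4, an inhibitory binding protein, passed in no mutant in the fit to all 8 libraries: its CPM was 275 and 265 in GFP and 239.5 to 279 in the mutants, with log2 fold changes of -0.15 ± 0.06, -0.14 ± 0.06 and -0.0080 ± 0.06 (SE). Without GFP replicate 2 they were -0.17, -0.17 and -0.03, called in R175H (adjusted p = 0.0088) and R248Q (adjusted p = 0.0081), and the R175H value was also called with the length trend removed and GFP replicate 1 left out (-0.13, adjusted p = 0.049).

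**Figure D4:**
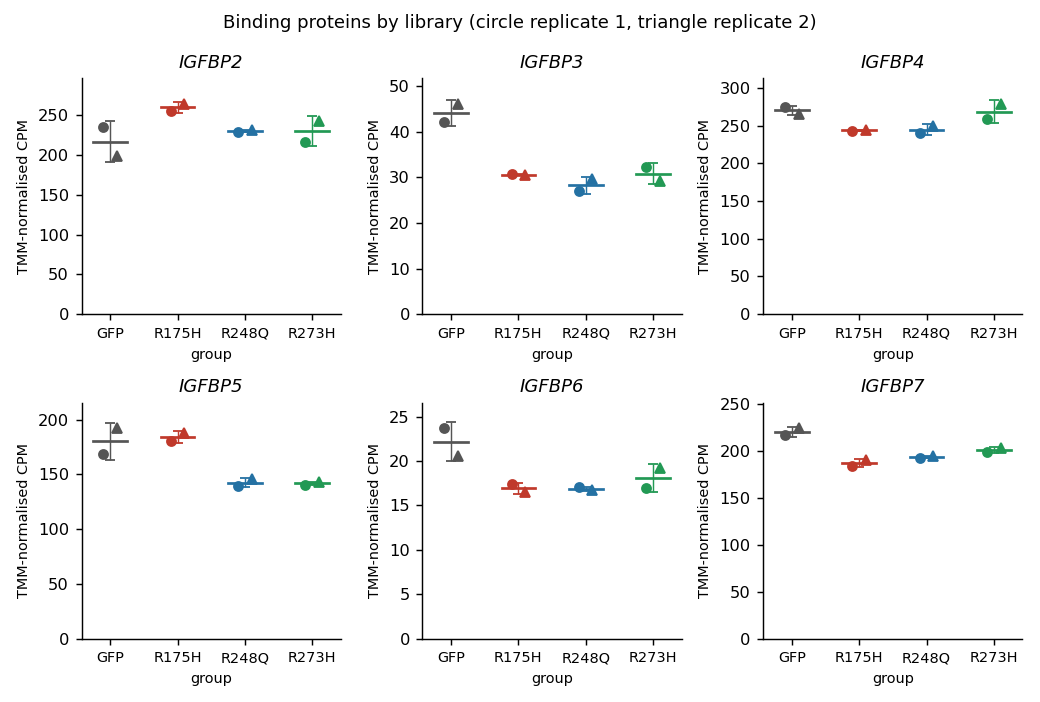
TMM-normalised CPM of the 6 binding proteins in each library by group, with lines at the group mean and bars of 1 SD (n = 2). IGFBP3, IGFBP6 and IGFBP7 are below GFP in all 6 mutant libraries. IGFBP5 is lower in the 4 libraries of R248Q and R273H than in the other 4, and IGFBP2 is highest in R175H. The share of all genes separated in this way was not counted.

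Summed over the 6 binding proteins, GFP had 505 and 483 CPM per kb, R175H 474 and 485, R248Q 451 and 460.3, and R273H 458 and 489.6. R175H and R273H overlapped GFP, and both R248Q libraries were below it. Within that sum IGFBP2 made 32.4% and 28.6% in GFP and 37.5% and 38.0% in R175H, and IGFBP3 made 3.45% and 3.95% in GFP and 2.46% to 2.93% in the 6 mutant libraries.

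Transcript length moved with these differences over all genes. Of 1066 tested genes of at least 8000 nt, 188 were called higher in R175H, 369 in R248Q and 64 in R273H, and 16, 4 and 1 lower. Their median log2 fold changes were 0.17, 0.28 and 0.14. Over the 517 genes below 1000 nt the medians were -0.09, -0.16 and -0.08. The rises of IGF1R and IGF2R in each mutant, and of INSR in R175H, and the value of INSR in R273H, were above the upper quartile of these long genes (0.32 in R175H, 0.48 in R248Q and 0.29 in R273H). IGF1R (12235 nt) and IGF2R (14044 nt) are longer than the median of these long genes (9989 nt). The fitted length trend in GFP replicate 1 was -0.33 and -0.36 at their lengths, against -0.25 at that of INSR. IRS1 was within the quartiles in each mutant, and so was INSR in R248Q. IGFBP3 was below the lower quartile of genes of 2000 to 4000 nt in each mutant (-0.16, -0.13 and -0.11), and IGFBP5 below that of genes of 4000 to 8000 nt in R248Q and R273H (-0.03 and -0.05).

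**Figure D5:**
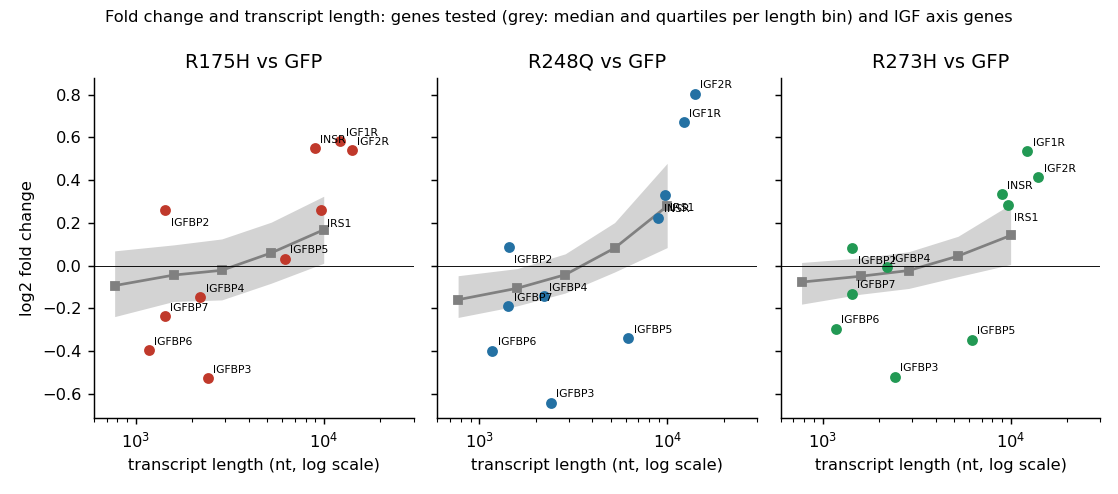
Log2 fold change against GFP by transcript length on a log axis, 1 panel per mutant. Grey squares and bands give the median and quartiles of all genes tested in 5 length bins and circles the 10 genes. The band ends at the median length of the longest bin, 9989 nt. IGF1R and IGF2R are longer and lie to the right of this end, higher than its upper quartile in all 3 panels. IGFBP3 lies below the band of its length.

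Compared with each other, the mutants differed in IGFBP5. It was lower than in R175H in both others, at -0.37 ± 0.07 in R248Q (log2, edgeR adjusted p = 0.0027) and -0.38 ± 0.07 in R273H (adjusted p = 0.0036, SE, n = 2 per group). It was the 1 member called of 10 in each comparison, where 7.17% and 3.63% of all genes were called. With the length trend removed the values were -0.41 and -0.36. The first call was lost without R175H replicate 2 (-0.34) or R248Q replicate 1 (-0.33), the second without R175H replicate 2 (-0.35) or R273H replicate 1 or 2 (-0.37 and -0.39). Between R273H and R248Q IGFBP5 differed by -0.0082 ± 0.07 (95% interval -0.15 to 0.13).

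In the same edgeR fit no other member was called between mutants. Other settings added calls, of which a part is given here. In fits to the groups compared alone IGF2R, INSR and IGFBP2 were also called in R248Q against R175H, where 19.8% of all genes were. IGFBP2 and IGFBP4 were so in R273H against R175H (10.5%), and IGF2R and IGFBP4 in R273H against R248Q (6.24%). With the length trend removed and GFP replicate 1 left out, IGFBP7 had 0.11 in both R248Q and R273H against R175H. Of the 10 members 0 were called between R273H and R248Q by edgeR in the fit to all 8 libraries, where 0.144% of all genes were. DESeq2 called 1 member (0.159% of all genes) and limma-voom 0 (0.204%). An unadjusted edgeR p under 0.05 was reached by 2 of the 10 members, and by 1065 of all 13213 genes tested. The DESeq2 call was IGF2R, at -0.39 ± 0.09 in R273H against R248Q (SE of the edgeR fit, edgeR adjusted p = 0.10). IGF2R was also called there without either GFP library and without a filter on low counts, and had -0.19 with the length trend removed (not called). Removing the length trend gave calls of IGFBP2 (-0.17, adjusted p = 0.034) and IGFBP4 (0.14, adjusted p = 0.047) in R273H against R175H. INSR was at -0.32 ± 0.10 in R248Q against R175H (edgeR adjusted p = 0.073) and at -0.43 with the length trend removed (adjusted p = 0.0087). Without GFP replicate 1 or 2, where 17.9% to 18.0% of all genes were called in R248Q against R175H, 12.1% in R273H against R175H and 4.23% to 4.24% in R273H against R248Q, more members were called: IGF2R (0.26), INSR (-0.32) and IGFBP2 in R248Q against R175H, IGFBP2 (-0.18) and IGFBP4 (0.14) in R273H against R175H, and IGF2R and IGFBP4 (0.14) in R273H against R248Q. IGF2R had, with the length trend removed, 0.08 in R248Q against R175H, not called. IGF1R did not pass in any pair, at 0.09 ± 0.10 in R248Q and -0.05 ± 0.10 in R273H against R175H (95% intervals -0.12 to 0.30 and -0.25 to 0.16).

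In the wider pathway, 57 more genes were listed by role, of which 44 passed the filter. In R175H 9 were called higher and 0 lower, in R248Q 9 and 0, and in R273H 1 and 0, where 6.39%, 4.88% and 0.757% of all genes were called higher. Their median log2 fold changes were 0.09, 0.11 and 0.07. GRB10, an adaptor that binds and restrains IGF1R and INSR, rose in all 3 mutants. GFP had 107 and 103 CPM, R175H 141 and 138, R248Q 123 and 125, and R273H 128 and 125, all mutant libraries above GFP. The log2 fold changes were 0.41 ± 0.06, 0.24 ± 0.06 and 0.27 ± 0.06 (SE, n = 2 per group). The R175H call held in all 19 alternatives. The R248Q call held in 10 and was lost without either library of R248Q or R273H, and the R273H call held in 9 and was lost without any 1 mutant library. GRB10 had, with the length trend removed, 0.35, 0.17 (not called) and 0.23.

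The stanniocalcins STC1 and STC2 inhibit PAPPA, a protease that cuts IGFBP4 and so frees IGFs. STC1 rose in R175H from 15.2 and 15.2 CPM to 30.2 and 32.4, by 1.05 ± 0.12 on the log2 scale (edgeR adjusted p = 2.6e-05, SE, n = 2 per group), and lay between 15.2 and 18.1 in the other mutants. It was lower than in R175H in R248Q (-0.89 ± 0.11) and R273H (-0.94 ± 0.11), and these 3 calls held in all 19 alternatives. Of the 44 genes 3 were lower than in R175H in R248Q and 3 in R273H, where 3.95% and 2.22% of all genes were, and 1 and 0 were higher, where 3.22% and 1.41% were. STC2 rose in R175H by 0.34 ± 0.08 (SE), a call lost without either R175H library. PAPPA had 0 to 7 counts per library and PAPPA2 had 0 in all 8. MMP14, a membrane protease of the matrix, was higher in R175H by 0.24 ± 0.05 (lost without either R175H library) and lower than in R175H in R248Q (-0.40 ± 0.05) and R273H (-0.32 ± 0.05, SE). The last of these was lost without R175H replicate 2 or either R273H library.

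Of the PI3K and AKT branch 18 of 19 listed genes were tested, with 5 higher in R175H, 5 in R248Q and 0 in R273H, and 0 lower in each. Of all genes tested 6.39%, 4.88% and 0.757% were called higher in these mutants, and 4.59%, 1.44% and 0.250% lower. The PI3K regulatory subunits PIK3R1 (0.27 ± 0.07), PIK3R2 (0.21 ± 0.05) and PIK3R3 (0.34 ± 0.08) rose in R175H with FOXO3, a factor that AKT inactivates (0.48 ± 0.12), and the mTORC2 subunit RICTOR (0.46 ± 0.13, SE, n = 2 per group). PIK3R1 (0.36 ± 0.07), FOXO1 (0.59 ± 0.11), MTOR (0.35 ± 0.10), RICTOR (0.55 ± 0.12) and the mTORC1 subunit RPTOR (0.36 ± 0.08) rose in R248Q. Without GFP replicate 1 the calls of FOXO3 (0.31) and RICTOR (0.33) in R175H and of MTOR (0.13) in R248Q were lost. Each of the 5 R175H calls was lost without R175H replicate 1 or 2, that of PIK3R1 also without either R248Q library and that of PIK3R2 without any 1 mutant library. Removing the length trend ended those of PIK3R1 (0.16) and RICTOR (0.30) in R175H and of MTOR (0.12) and RICTOR (0.27) in R248Q. In R248Q PIK3R1 had 0.31 without GFP replicate 1 and 0.20 with the length trend removed, and RPTOR 0.26 and 0.23, all called. In R248Q those of PIK3R1 and RPTOR were lost without R248Q replicate 1 or 2, that of MTOR without any 1 mutant library, that of RICTOR without R248Q replicate 1 and that of FOXO1 without R248Q replicate 2.

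Of 12 tested adaptors and regulators GAB1 rose in R248Q beside GRB10 (0.47 ± 0.13, SE), and was 0.31 and not called without GFP replicate 1. IGF2BP1 (0.31 ± 0.08) and IGF2BP2 (0.29 ± 0.08), which bind IGF2 mRNA, also rose in R248Q, and without GFP replicate 1 they had 0.16 and 0.25, neither called. IGF2BP1 was at 0.09 with the length trend removed, not called. These 3 calls were also lost without any 1 mutant library. Of the 4 genes of mannose 6-phosphate sorting, which supplies the other cargo of IGF2R, 0 were called in any mutant, with medians of 0.0043, -0.0060 and 0.04. Of all genes tested 11.0%, 6.32% and 1.01% were called in R175H, R248Q and R273H. IGFBPL1, a further member of the binding protein family, was at 42.4 to 48.2 CPM in all libraries and passed in no mutant.

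The genes whose log2 CPM ran most like that of a member over the 8 libraries were taken from 10255 others with a mean CPM of at least 5. IGF1R was matched most closely by ANKRD33B (Pearson's r = 0.99), ARPP19 (0.98) and UBN2 (0.98). IGF2R was nearest to FOXO1 (0.99), AHNAK2 (0.99) and DYNC2H1 (0.99), and INSR to SREBF1 (0.99), PAX9 (0.99) and CEP57 (0.98). IGFBP3 had DAAM2 (0.98), NUP37 (0.96) and NUDT16L1 (0.96), and IGFBP5 had CNTN1 (0.95), ZNF250 (0.95) and CCDC109B (0.95). For IGFBP2 they were SUPT20H (0.99), WDR25 (0.97) and CCR10 (0.97), for IGFBP6 HAT1 (0.98), ARFIP2 (0.97) and YWHAB (0.97), and for IGFBP7 IER5, NOL11 and GFER (0.98 each). These are the highest of many correlations over 8 points that fall into 4 groups and share the length trend, and are given as a description.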

How the data were processed

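mRNA of 8 HGC27 libraries was measured by sequencing. The authors deposited raw read counts per gene symbol. Per the labels' protocols the libraries were made with a Kapa mRNA kit, and per the submitters' processing notes bcl2fastq and STAR 2.5 were used with hg19. How reads were counted, with which annotation and strand setting, is not given in the sources used here.

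These counts went into edgeR 4.0.16 (R 4.3.3): filterByExpr (minimum count 10, minimum total 15) left 13213 genes, TMM scaling gave factors from 0.989 to 1.01, and the quasi-likelihood fit took all 8 libraries with 1 mean for each group (4 residual degrees of freedom, median prior 11.9). The SE is the size of the log2 difference over the root of F, and 95% intervals use the median prior. The floor of detection was 3 counts per library and covers counting error only. Transcript length is the longest basic transcript of GENCODE 29, matched by symbol for 93.4% of tested genes. The length trend was a loess (span 0.3) of each library's deviation from the gene mean on log2 length over genes with log2 CPM above 3, entered as an offset. The procedure was tested on simulated data with the same dispersion for all genes and libraries. These held no length trend and no wider spread between the GFP libraries, so that test covers neither.

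The named genes are the 10 members, wider pathway genes called against GFP, the ligands, IGFBP1 and, for each called member, the 3 genes most like it. The members and lists were chosen with earlier results of these data known. The alternatives were DESeq2 1.42.0, its size factors, library size alone, limma-voom 3.58.1, looser and stricter filters (1 count in total, mean CPM of 1), only the groups compared, a replicate block, each library left out, and the length trend removed (alone, with the block, or without GFP replicate 1). The transcript level of the overexpressed gene is not reported here.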

Additional observations from a re-analysis of the deposited data

How the results depend on the processing

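The direction of every called member against GFP was kept in all 19 alternatives, and none reversed. The number of the 10 members called in R175H against GFP was 7, and 3 to 8 with 1 library left out. It was 6 in R248Q, with 3 to 8, and 4 in R273H, with 0 to 5. Between mutants it was 1, 1 and 0, with 0 to 4 for R248Q against R175H, 0 to 3 for R273H against R175H and 0 to 2 for R273H against R248Q. Over the same fits the share of all genes called moved widely too, so these ranges are no trait of the members alone. In every comparison that share was highest without a GFP library and lowest without a mutant library of the groups compared. In fits to the groups compared alone the counts were 4 in R175H, 0 in R273H, and 4, 3 and 2 for these pairs of mutants, where 19.8%, 10.5% and 6.24% of all genes were called. With the length trend removed they were 2 for R248Q against R175H and 3 for R273H against R175H (11.8% and 8.23% of all genes), and with GFP replicate 1 left out as well 4, 4 and 1 for the pairs (17.9%, 14.3% and 2.30%). Without a filter beyond 1 count they were 2 for R248Q against R175H and 1 for R273H against R248Q (7.40% and 0.951% of all genes). DESeq2 also gave 1 for R273H against R248Q (0.159%). The replicate block with the length trend removed gave 2 for R248Q against R175H (10.6% of all genes). The replicate block alone gave 5 members in R175H, 4 in R248Q and 3 in R273H, where 7.90%, 4.07% and 0.439% of all genes were called. Same-numbered libraries shared only a number: their deviations from the group means correlated by -0.21 to 0.07 between groups. The causes were not tested. IGF1, PAPPA and IGFBP1 had too few counts to be tested.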
